A study of Mus musculus with 18 samples.

Results

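The genes described here make, bind, sense and break down retinoic acid in cultured embryonic mouse kidney. They are the 9 rows of the deposited expression table whose gene name is Aldh1a1 (ENSMUSG00000053279), Aldh1a2 (ENSMUSG00000013584), Aldh1a3 (ENSMUSG00000015134), Crabp1 (ENSMUSG00000032291), Crabp2 (ENSMUSG00000004885), Rara (ENSMUSG00000037992), Rarb (ENSMUSG00000017491), Rarg (ENSMUSG00000001288) or Cyp26b1 (ENSMUSG00000063415). These are 9 of the 78317 genes of the table, and all 9 passed the filter on low counts that left 16544 genes for testing.

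Kidneys of wild-type CD1 mice were taken at embryonic day 14, exposed for 4 hours to an AAV2 vector, grown for 72 hours in a hydrogel of collagen I and Matrigel, pooled within a condition, digested for 30 minutes and sorted by flow cytometry. Every vector carried an mCherry reporter under the ubiquitous CAG promoter and a pair of shRNA cassettes in a mir30 backbone. The hairpins of Mylk-shRNA targeted Mylk, those of Rock1/2-shRNA targeted both Rock genes, and those of the control, scramble-shRNA, were shuffled versions of the Rock targets. Mylk and the Rock genes encode kinases that act on the contractile actomyosin of the cell. The 6 groups were Mylk-shRNA positive, Mylk-shRNA negative, Rock1/2-shRNA positive, Rock1/2-shRNA negative, scramble-shRNA positive and scramble-shRNA negative, where positive cells were the top 25% of mCherry signal and negative cells the bottom 50%. All 6 groups shared strain, age, virus type and culture, and the control vector was itself a virus with a hairpin, so no group stands for untouched kidney. Each group held 3 libraries, 1 from each of 3 litters, and a positive and a negative library of 1 vector and 1 litter came from 1 pool of cultures.

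Retinoic acid is made from vitamin A: retinol is oxidised to retinaldehyde, and the ALDH1A enzymes oxidise retinaldehyde to retinoic acid. CRABP proteins bind retinoic acid in the cytoplasm, the RAR receptors pair with RXR receptors on DNA and change transcription when retinoic acid binds, and the CYP26 enzymes break it down. In the embryonic mouse kidney, Aldh1a2 is known as an enzyme of the stroma, and signalling through RARs is known to sustain Ret, the receptor that drives branching of the ureteric tip.

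RARs bind pairs of a short hexamer, and a pair of direct repeats spaced by 5 bases is the classical retinoic acid response element of the Rarb and Cyp26a1 promoters. The stretches below are shown because they are the matches to that element among the genes described here. Capitals mark the repeats, which lie 53 to 37 bases before the start of Rarb and, on the opposite strand, 32 to 16 bases before the start of Cyp26a1. The sequences are RefSeq's, build GRCm38.p6, read along the strand of the gene, from chr14:16575507-16575536 (minus strand) for Rarb and chr19:37697769-37697798 (plus strand) for Cyp26a1.
Rarb: cgggaagGGTTCAccgaaAGTTCActcgca
Cyp26a1: ttaaagaTGAACTttgggTGAACTaatttg
The search covered the hexamer AGGTCA and the related hexamers AGTTCA (in both printed repeats), GGGTCA (in neither printed repeat) and GGTTCA (in the printed repeat of Rarb) as direct repeats spaced by 1, 2 or 5 bases on either strand, in windows of 300 bases that run from 250 bases before to 50 bases after a RefSeq start. Repeats spaced by 5 were found in 32 of 32851 windows of the genome (0.0974%), those spaced by 1 in 73 (0.222%) and those spaced by 2 in 88 (0.268%), while a lone hexamer was found in 43.7%. Of the 9 genes, 7 had a window and Aldh1a3 and Crabp2 had none. Rarb was the 1 gene of these 7 with repeats spaced by 5, and 0 of the 7 had repeats spaced by 1 or 2. Of 36 other genes of retinoid handling or response, 25 had a window, and 1 of these (Cyp26a1) had repeats spaced by 5 and 1 (Bco1) repeats spaced by 1. A match is a string of letters and does not show that a receptor binds there.

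The libraries held 3121620 to 12170800 counts each (median 7581390). Levels are in CPM, which scale a gene's count to a library total of 1e+06 and not by transcript length, so they are compared between libraries and not between genes. Mitochondrially encoded genes took 3.95 to 9.16% of the counts in litter 3, against 2.01 to 4.02% in litters 1 and 2. The markers of kidney cell types were present, but the fractions held many of them unequally. The summed level of 12 stromal markers was 6406 to 10281 CPM in positive and 4373 to 5117 CPM in negative libraries. The sum of 7 macrophage markers was 136 to 329 CPM in positive and 2.55 to 7.97 CPM in negative libraries, and that of 7 smooth muscle and pericyte markers 359 to 1011 CPM in positive and 151 to 273 CPM in negative libraries. The sum of 8 nephron progenitor markers was 466 to 626 CPM in positive and 497 to 1058 CPM in negative libraries, that of 8 early nephron markers 368 to 457 CPM in positive and 730 to 1288 CPM in negative libraries, and that of 6 ureteric tip markers 94.6 to 131 CPM in positive and 124 to 212 CPM in negative libraries. Podocyte markers summed to 177 to 222 CPM in positive and 222 to 265 CPM in negative libraries, endothelial ones to 132 to 236 CPM in positive and 173 to 273 CPM in negative libraries, and mesothelial ones to 5.40 to 11.5 CPM in positive and 9.25 to 20.2 CPM in negative libraries. Proximal tubule markers overlapped widely, with 64.3 to 154 CPM in positive and 48.4 to 119 CPM in negative libraries. Ureteric trunk markers summed to 57.8 to 98.4 CPM in positive and 80.8 to 151 CPM in negative libraries. Neural and glial ones summed to 18.5 to 25.4 CPM in positive and 22.9 to 35.0 CPM in negative libraries. In the positive fraction Mylk stood at 87.9% of scramble with Mylk-shRNA (95% interval 71.3 to 108%), and Rock1 and Rock2 at 94.1% (76.7 to 115%) and 88.7% (70.8 to 111%) of scramble with Rock1/2-shRNA, so every interval included 100%.

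The positive and negative fractions differed in 4 of the 9 genes. Averaged over the 3 vectors, Crabp1 (6.40-fold), Aldh1a3 (1.82-fold) and Aldh1a2 (1.54-fold) rose in positive cells and Cyp26b1 fell to 0.519-fold, while Aldh1a1, Crabp2, Rara, Rarb and Rarg did not pass the test. A gene is called when its adjusted p (edgeR's quasi-likelihood test, adjusted by Benjamini-Hochberg over all 16544 genes) is under 0.05. Of all genes tested, 33.6% were called in this comparison, 17.6% higher and 16.0% lower in positive cells, so 4 of 9 with 3 higher and 1 lower is near what the table as a whole shows. The median log2 fold change was 0.13 over the 9 genes and -0.03 over all genes tested. In sorted bulk cells, fewer cells of a type and less RNA per cell cannot be told apart. The 3 genes that rose moved with the stromal, macrophage and smooth muscle markers (12 of 12, 7 of 7 and 6 of 7 of these were called higher in positive cells), and Cyp26b1 moved with the nephron progenitor, early nephron and ureteric tip markers (8 of 8, 8 of 8 and 6 of 6 called lower). Podocyte markers gave 2 higher and 2 lower calls of 4 tested, proximal tubule markers 0 higher and 1 lower of 6, and mesothelial markers 0 higher and 1 lower of 2. The mean sum was also lower in positive libraries for ureteric trunk (75.6 against 113 CPM), endothelial (176 against 220 CPM) and neural and glial markers (21.7 against 27.9 CPM). Single endothelial genes went both ways. The direction of Cyp26b1 is thus not particular to the nephron progenitor, early nephron and ureteric tip lists. The part of these markers in the results was not tested.

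**Figure D1:**
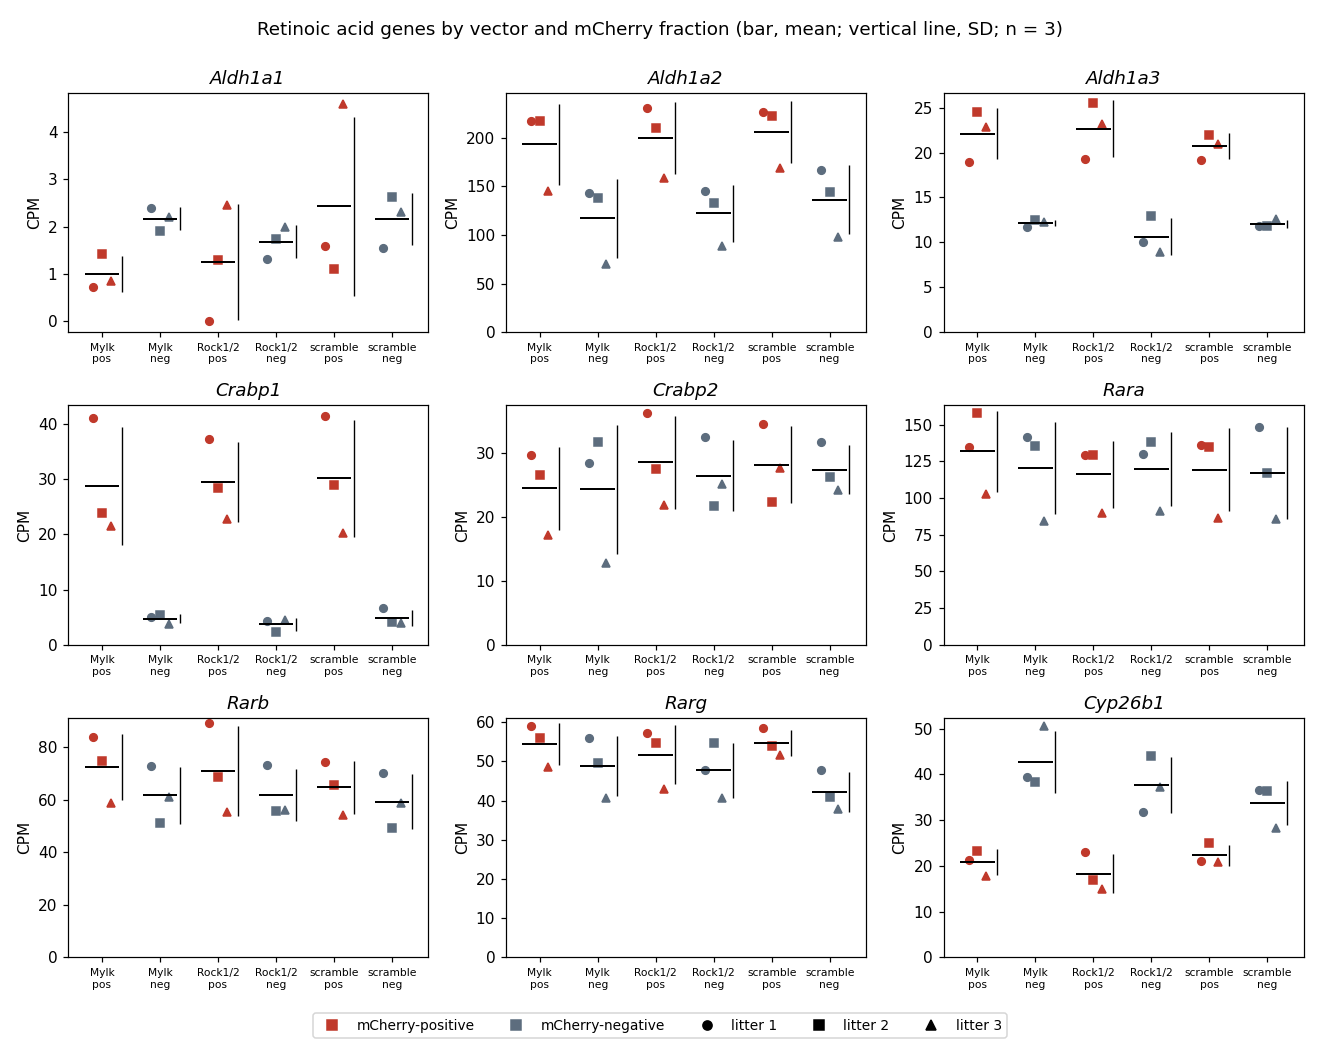
CPM of the 9 genes in each library (vertical axis, from 0 for all but Aldh1a1, whose axis starts just below 0), by vector and fraction (horizontal axis). Red points are mCherry-positive and grey points mCherry-negative libraries, the marker shape gives the litter, the bar is the mean and the vertical line the SD of 3 libraries. Crabp1 and Aldh1a3 lie higher and Cyp26b1 lower in all 9 positive libraries than in any negative one.

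Among the enzymes that make retinoic acid, Aldh1a2 rested on 317 to 2096 counts per library. With Mylk-shRNA, Aldh1a2 had 217, 218 and 145 CPM in the positive libraries of litters 1, 2 and 3, against 143, 138 and 70.1 CPM in the negative ones. With Rock1/2-shRNA it had 230, 210 and 159 CPM in the positive libraries, against 145, 133 and 88.7 CPM in the negative ones. With scramble-shRNA it had 227, 222 and 169 CPM in the positive libraries, against 167, 145 and 97.4 CPM in the negative ones. The positive library was the higher in all 9 cultures, by 1.35- to 2.07-fold with a median of 1.58-fold, but the fractions overlapped across litters because litter 3 was low in both. The log2 fold change averaged over vectors was 0.62 ± 0.14 (SE) with an adjusted p of 0.00240. Within a vector it was 0.65 ± 0.24 for Mylk-shRNA, 0.66 ± 0.24 for Rock1/2-shRNA and 0.55 ± 0.24 for scramble-shRNA, and did not pass there (adjusted p 0.0947, 0.0982 and 0.167). With the litter as a block, which removes the level shared by the libraries of a litter, it passed in each vector (adjusted p 3.29e-05, 3.52e-05 and 0.000234).

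Aldh1a3, a second enzyme of the same step, rose in every vector. With Mylk-shRNA, Aldh1a3 had 18.9, 24.5 and 22.9 CPM in the positive libraries of litters 1, 2 and 3, against 11.7, 12.5 and 12.3 CPM in the negative ones. With Rock1/2-shRNA the positive libraries had 19.3, 25.5 and 23.2 CPM, against 9.99, 12.97 and 8.98 CPM in the negative ones. With scramble-shRNA the positive libraries had 19.1, 21.98 and 20.98 CPM, against 11.9, 11.8 and 12.6 CPM in the negative ones. Every positive library lay above every negative one, a separation shared by 6.65% of all genes tested. The log2 fold change was 0.86 ± 0.085 on average (adjusted p 2.53e-07), and 0.78 ± 0.15, 1.06 ± 0.15 and 0.74 ± 0.15 for Mylk-shRNA, Rock1/2-shRNA and scramble-shRNA (adjusted p 0.00122, 8.60e-05 and 0.00207). The deposited counts of Aldh1a3 were fractions in 15 of 18 libraries, more than for any other of the 9 genes (0 to 3 libraries), so part of its counts was shared out among features by a rule that is not given in the sources used here.

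Aldh1a1, the third enzyme of the family, was near the limit of detection with 0 to 32 counts per library. It had a lowest, median and highest level of 0, 1.302 and 4.60 CPM in the 9 positive libraries, against 1.31, 1.99 and 2.63 CPM in the 9 negative ones. The fractions overlapped widely, and the positive library was the higher in 3 of 9 cultures. The 0 was the Rock1/2-shRNA positive library of litter 1, where a count of 0 allows up to 0.961 CPM (3 counts, counting error only). The log2 fold change of -0.55 ± 0.34 did not pass (adjusted p 0.230), and without litter 3 it was -0.90 with an adjusted p of 0.0471.

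Of the cytoplasmic binding proteins, Crabp1 differed between the fractions and Crabp2 gave no call. With Mylk-shRNA, Crabp1 had 41.0, 23.8 and 21.4 CPM in the positive libraries of litters 1, 2 and 3, against 5.03, 5.31 and 3.76 CPM in the negative ones. With Rock1/2-shRNA the positive libraries held 37.2, 28.4 and 22.8 CPM of it, against 4.35, 2.31 and 4.42 CPM in the negative ones. With scramble-shRNA they held 41.4, 28.9 and 20.3 CPM, against 6.60, 4.11 and 3.86 CPM in the negative ones. Every positive library was above every negative one, as for 6.65% of all genes tested. The ratio within a culture ran from 4.49 to 12.3 with a median of 6.27. The log2 fold change was 2.68 ± 0.18 on average (95% interval 2.29 to 3.06, adjusted p 3.99e-09). By vector it was 2.54 ± 0.31 with Mylk-shRNA, 2.92 ± 0.32 with Rock1/2-shRNA and 2.57 ± 0.31 with scramble-shRNA (adjusted p 2.67e-05, 9.48e-06 and 2.81e-05). Among the 9 genes this was the largest change in either direction.

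Crabp2, whose product carries retinoic acid to the receptors, had a lowest, median and highest level of 17.2, 27.5 and 36.2 CPM in positive libraries, against 12.8, 26.2 and 32.5 CPM in negative ones. The fractions overlapped over nearly their whole ranges, and the positive library was the higher in 6 of 9 cultures. Its log2 fold change was -0.02 with a 95% interval of -0.34 to 0.31, which leaves room for a fall to 0.787-fold or a rise to 1.24-fold. Since Crabp1 rose and Crabp2 gave no call, the ratio of Crabp1 to Crabp2 CPM within a library was 0.736 to 1.38 in positive and 0.106 to 0.293 in negative libraries, without overlap.

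The upstream stretches of Crabp1 and Aldh1a2 are shown because both genes rose in positive cells and both lie on chromosome 9 on the plus strand. They are the 250 bases before each RefSeq start in GRCm38.p6, chr9:54764498-54764747 for Crabp1 and chr9:71215539-71215788 for Aldh1a2, and capitals mark the GC box GGGCGG on either strand.
Crabp1: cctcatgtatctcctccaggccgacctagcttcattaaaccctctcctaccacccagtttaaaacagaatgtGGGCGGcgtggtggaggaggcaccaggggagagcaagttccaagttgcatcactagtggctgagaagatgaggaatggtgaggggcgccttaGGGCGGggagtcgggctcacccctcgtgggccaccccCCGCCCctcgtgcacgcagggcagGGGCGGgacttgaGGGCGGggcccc
Aldh1a2: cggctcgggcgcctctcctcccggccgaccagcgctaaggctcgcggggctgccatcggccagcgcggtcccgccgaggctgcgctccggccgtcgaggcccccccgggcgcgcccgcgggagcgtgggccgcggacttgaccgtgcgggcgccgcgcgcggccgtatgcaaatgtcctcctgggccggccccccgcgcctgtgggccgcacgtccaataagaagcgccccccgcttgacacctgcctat
The Crabp1 stretch holds 5 GC boxes and the Aldh1a2 stretch 0, and 35.7% of all 300-base windows hold at least 1. Neither stretch holds a pair of the hexamers named above at the spacings searched, which says only that these letters are not in these windows.

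The receptors showed small differences between the fractions or none that could be detected. Rara had a lowest, median and highest level of 86.6, 130 and 158 CPM in positive libraries, against 84.5, 130 and 149 CPM in negative ones. Rarb had 54.2, 68.5 and 89.1 CPM in positive libraries, against 49.1, 58.6 and 73.2 CPM in negative ones. Rarg had 43.1, 54.8 and 59.0 CPM in positive libraries, against 37.8, 47.7 and 55.9 CPM in negative ones. The ranges of the fractions overlapped for each receptor, and the positive library was the higher in 4, 6 and 9 of 9 cultures for Rara, Rarb and Rarg. For Rarb it was the higher in every culture of litters 1 and 2 and the lower in every culture of litter 3. The litter 3 ratios of Rarb were 0.965 with Mylk-shRNA, 0.983 with Rock1/2-shRNA and 0.925 with scramble-shRNA. The log2 fold changes were -0.02 ± 0.13 for Rara (95% interval -0.29 to 0.25), 0.13 ± 0.10 for Rarb (-0.08 to 0.35) and 0.16 ± 0.07 for Rarg (0.01 to 0.31), with adjusted p of 0.940, 0.342 and 0.0921. Rarg passed with the litter as a block (0.17 on the log2 scale, adjusted p 0.0132) and with the culture as a block (adjusted p 0.0226), with ratios within a culture of 1.00 to 1.37. Within scramble-shRNA the log2 fold change of Rarg was 0.33 and passed with either block (adjusted p 0.0111 for litter and 0.0193 for culture) but not without one (0.104). Rarb overlaps Top2b on the opposite strand in the GENCODE M21 annotation, and since the use of strand in counting is not given, reads of the overlap cannot be told apart.

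**Figure D2:**
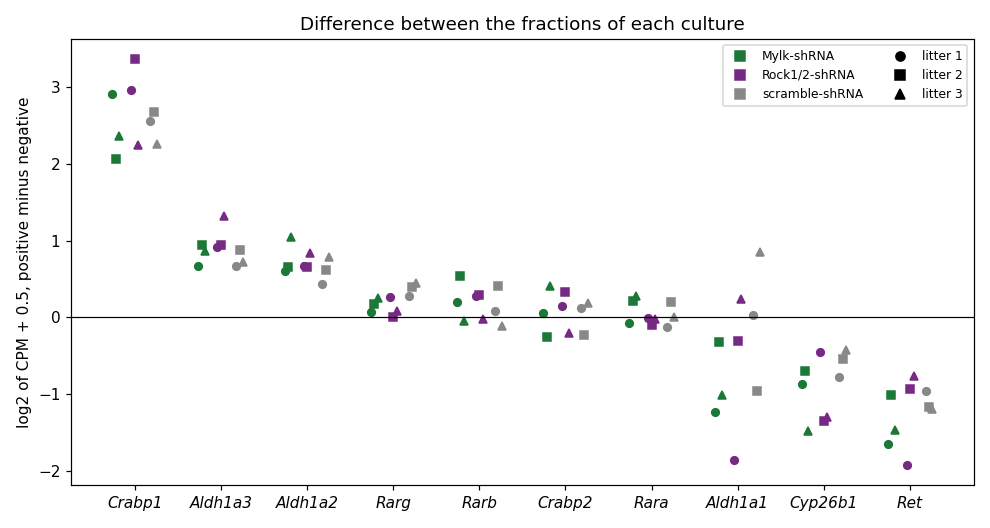
Difference between the positive and the negative library of each of the 9 cultures, as log2 of CPM + 0.5 (vertical axis), for the 9 genes and Ret (horizontal axis). Colour gives the vector and shape the litter. Crabp1, Aldh1a3, Aldh1a2 and Rarg lie above 0 in 9 of 9 cultures, Cyp26b1 and Ret below 0 in 9 of 9, and the other 4 genes on both sides.

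Cyp26b1, the enzyme of the 9 that breaks retinoic acid down, fell in positive cells. With Mylk-shRNA, Cyp26b1 had 21.3, 23.3 and 17.8 CPM in the positive libraries of litters 1, 2 and 3, against 39.4, 38.2 and 50.5 CPM in the negative ones. With Rock1/2-shRNA the positive libraries stood at 23.1, 16.9 and 14.9 CPM, against 31.7, 44.0 and 37.3 CPM in the negative ones. With scramble-shRNA they stood at 21.1, 24.9 and 20.9 CPM, against 36.6, 36.3 and 28.3 CPM in the negative ones. Every positive library lay below every negative one, a separation shared by 2.06% of all genes tested, and the ratio within a culture was 0.352 to 0.740. The log2 fold change was -0.95 ± 0.093 on average (adjusted p 2.39e-07), and -1.09 ± 0.16, -1.11 ± 0.16 and -0.64 ± 0.16 for Mylk-shRNA, Rock1/2-shRNA and scramble-shRNA (adjusted p 0.000127, 0.000162 and 0.0112). The scramble call was lost without the scramble-shRNA negative library of litter 2 (adjusted p 0.0548) or the scramble-shRNA positive library of litter 1 (adjusted p 0.0604). The sister enzymes were too low to test: Cyp26a1 had 0 to 0.641 CPM in positive and 0.257 to 0.885 CPM in negative libraries, and Cyp26c1 was at 0 in all positive libraries and reached 0.664 CPM in negative ones. The ratio of Aldh1a2 to Cyp26b1 CPM within a library was 8.09 to 12.4 in positive and 1.39 to 4.58 in negative libraries, and that of Aldh1a3 to Cyp26b1 was 0.836 to 1.55 in positive and 0.2405 to 0.444 in negative libraries. These ratios rest on CPM without a length scale, so their sizes are comparable between libraries only.

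Within each vector, 3 of the 9 genes were called, namely Crabp1, Aldh1a3 and Cyp26b1. The share of all genes called was 13.2% for Mylk-shRNA, 11.2% for Rock1/2-shRNA and 12.3% for scramble-shRNA. Ordered by mean, the 6 groups fell into a positive and a negative trio for these 3 genes and for Aldh1a2. For Crabp1 the 3 positive groups averaged 30.2 ± 10.6 (scramble-shRNA), 29.4 ± 7.25 (Rock1/2-shRNA) and 28.7 ± 10.7 CPM (Mylk-shRNA), and the 3 negative groups 4.85 ± 1.51 (scramble-shRNA), 4.70 ± 0.825 (Mylk-shRNA) and 3.69 ± 1.20 CPM (Rock1/2-shRNA) (SD, n = 3 each). For Aldh1a3 the order was 22.7 ± 3.14 (Rock1/2-shRNA), 22.1 ± 2.85 (Mylk-shRNA) and 20.7 ± 1.45 CPM (scramble-shRNA) in positive groups, then 12.16 ± 0.374 (Mylk-shRNA), 12.1 ± 0.431 (scramble-shRNA) and 10.6 ± 2.07 CPM (Rock1/2-shRNA) in negative ones. For Cyp26b1 the positive groups averaged 22.3 ± 2.25 (scramble-shRNA), 20.8 ± 2.83 (Mylk-shRNA) and 18.3 ± 4.24 CPM (Rock1/2-shRNA), and the negative groups 42.7 ± 6.74 (Mylk-shRNA), 37.7 ± 6.18 (Rock1/2-shRNA) and 33.7 ± 4.74 CPM (scramble-shRNA). In each of these orders the step between the trios was larger than either neighbour's SD and no other step was. For Aldh1a2 the positive groups averaged 206 ± 31.9 (scramble-shRNA), 200 ± 36.8 (Rock1/2-shRNA) and 193 ± 41.6 CPM (Mylk-shRNA), and the negative groups 136 ± 35.7 (scramble-shRNA), 122 ± 29.6 (Rock1/2-shRNA) and 117 ± 40.7 CPM (Mylk-shRNA). There the step between the trios exceeded the SDs but the libraries of the neighbouring groups overlapped.

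For the other 5 genes no step between neighbouring groups exceeded the larger SD. Group means ran from 1.00 to 2.43 CPM for Aldh1a1, from 24.3 to 28.5 CPM for Crabp2, from 116 to 132 CPM for Rara, from 59.3 to 72.4 CPM for Rarb and from 42.2 to 54.7 CPM for Rarg. For Rarb and Rarg the 3 positive groups still ranked above the 3 negative ones.

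The knockdown vectors gave no call in any of the 9 genes against scramble-shRNA. Of all genes tested, 0% were called for Mylk-shRNA against scramble-shRNA and for Rock1/2-shRNA against scramble-shRNA, in either fraction, and 0% for Mylk-shRNA against Rock1/2-shRNA, with edgeR and with DESeq2. With the litter as a block in edgeR, 0 genes were called in each of these as well. At an unadjusted p under 0.05, 258 genes (1.56% of those tested) were counted for Mylk-shRNA against scramble-shRNA in positive and 285 (1.72%) in negative cells. For Rock1/2-shRNA against scramble-shRNA there were 145 (0.876%) and 200 (1.21%), and for Mylk-shRNA against Rock1/2-shRNA 199 (1.20%) and 121 (0.731%). As proportions, all of these are below the level of 0.05 itself. Of the 9 genes, 1 was below that level in 1 of these comparisons. This was Cyp26b1 in negative cells with Mylk-shRNA against scramble-shRNA, with a log2 fold change of 0.32 ± 0.15 and an unadjusted p of 0.0489 (adjusted p 1). The Mylk-shRNA library was the higher in 3 of 3 litters, by 0.10, 0.07 and 0.82 on the log2 scale of CPM + 0.5, and without litter 3 the log2 fold change was 0.11.

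In positive cells the log2 fold changes of the 9 genes ran from -1.17 to 0.15 for Mylk-shRNA against scramble-shRNA, from -0.68 to 0.14 for Rock1/2-shRNA against scramble-shRNA and from -0.49 to 0.20 for Mylk-shRNA against Rock1/2-shRNA. In negative cells they ran from -0.21 to 0.32, from -0.42 to 0.17 and from -0.08 to 0.39 for the same comparisons. The smallest unadjusted p in positive cells belonged to Aldh1a1 for Mylk-shRNA against scramble-shRNA (-1.17 ± 0.64, p 0.0862 from edgeR's fit) and to Cyp26b1 for Rock1/2-shRNA against scramble-shRNA (-0.32 ± 0.17, p 0.0762) and for Mylk-shRNA against Rock1/2-shRNA (0.20 ± 0.17, p 0.268). In negative cells it belonged to Rarg for Rock1/2-shRNA against scramble-shRNA (0.17 ± 0.12, p 0.186) and to Aldh1a3 for Mylk-shRNA against Rock1/2-shRNA (0.20 ± 0.15, p 0.195). The intervals set what this fit could have missed. For Crabp1 in positive cells the 95% interval was -0.65 to 0.51 with Mylk-shRNA and -0.65 to 0.52 with Rock1/2-shRNA. For Aldh1a2 it was -0.63 to 0.40 and -0.57 to 0.46. The fit has no litter term, so these intervals also hold the spread between litters and do not bound a comparison within litters. With the litter as a block, 0 of the 9 genes were called between vectors, but the intervals of that fit are not given here. Within litters 1, 2 and 3, Aldh1a2 in positive cells differed by -0.06, -0.03 and -0.22 with Mylk-shRNA against scramble-shRNA (log2 of CPM + 0.5). With Rock1/2-shRNA against scramble-shRNA it differed by 0.02, -0.08 and -0.09. These comparisons share the scramble-shRNA libraries.

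**Figure D3:**
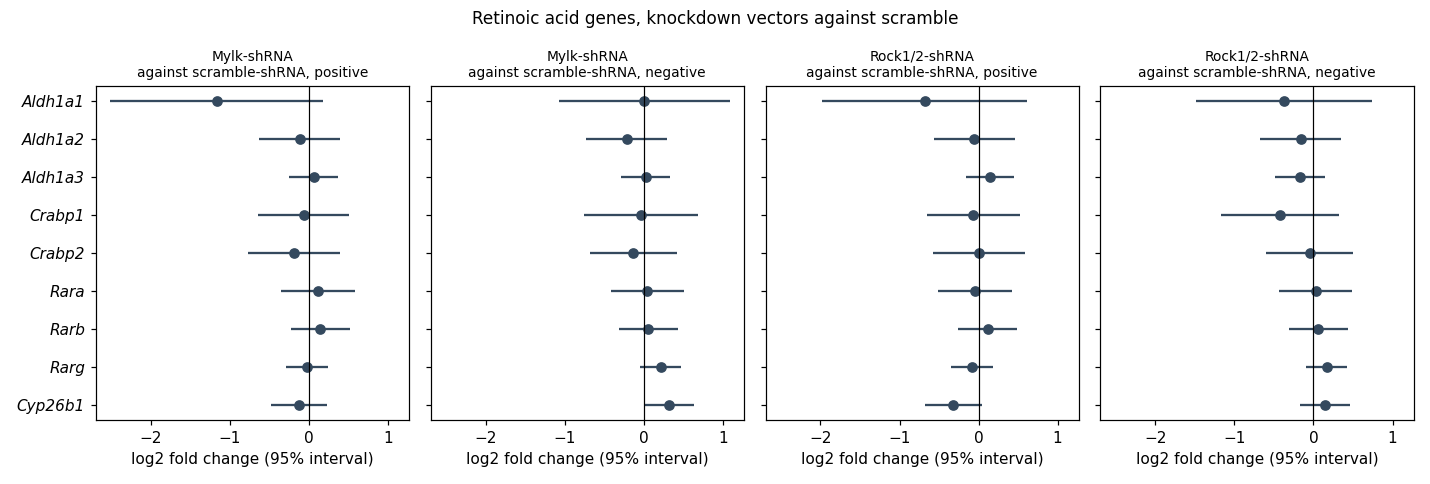
Log2 fold change of the 9 genes for each knockdown vector against scramble-shRNA (horizontal axis), with 1 panel for each vector and fraction. Points are fitted values and bars 95% intervals. All intervals include 0 except that of Cyp26b1 for Mylk-shRNA in negative cells, which starts at 0.0017, and none of the 9 genes was called.

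The difference between fractions was also compared between vectors. Of all genes tested, 0% were called for Mylk-shRNA minus scramble-shRNA and 0% for Rock1/2-shRNA minus scramble-shRNA. With DESeq2, and with the litter or the culture as a block, 0 genes were called. Unadjusted p-values under 0.05 were counted for 217 and 145 genes (1.31 and 0.876% of those tested). Among the 9 genes Cyp26b1 had the smallest unadjusted p in both. Its fall in positive cells was larger than with scramble-shRNA by -0.44 ± 0.23 on the log2 scale for Mylk-shRNA (p 0.0643 from edgeR's fit) and by -0.47 ± 0.23 for Rock1/2-shRNA (p 0.0563), which did not pass. Without litter 3 the values were -0.21 and -0.32. By litter (1, 2 and 3), on the log2 scale of CPM + 0.5, they were -0.09, -0.17 and -1.06 for Mylk-shRNA. For Rock1/2-shRNA they were 0.33, -0.82 and -0.87, so in litter 1 the fall was smaller than with scramble-shRNA. Both comparisons use the same scramble-shRNA libraries and are not independent of each other.

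The other genes of retinoid handling, a list of 24 of which 17 were tested, gave 2 genes that rose and 3 that fell in positive cells, against 33.6% of all genes called. The number called was 8 in place of 5 without litter 3, and also without the Mylk-shRNA negative library of litter 3 alone. Adh1, an alcohol dehydrogenase that can oxidise retinol, rose by 1.68 ± 0.15 on the log2 scale, with 12.7, 22.2 and 28.2 CPM (lowest, median and highest) in positive and 4.60, 5.68 and 10.0 CPM in negative libraries. Rxra, the partner of the RARs, rose by 0.58 ± 0.075, with 49.6, 59.1 and 76.4 CPM in positive and 35.5, 37.9 and 46.5 CPM in negative libraries. For Adh1 and Rxra no positive library fell within the range of the negative ones. All positive libraries lay above all negative ones for 6.65% of all genes tested.

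On the other side, Rbp4, the carrier of retinol in blood, fell by 1.59 on the log2 scale (SE 0.12), with 3.90, 5.77 and 7.62 CPM in positive and 11.1, 17.5 and 20.9 CPM in negative libraries. Fabp5, a fatty acid binding protein that also binds retinoic acid, fell by 0.69 (SE 0.10), and Stra6, the membrane receptor for retinol bound to RBP4, fell by 0.49 (SE 0.068). Stra6 had 21.3, 25.3 and 28.5 CPM in positive and 28.6, 33.4 and 37.7 CPM in negative libraries, ranges that only just fail to meet. All positive libraries lay below all negative ones for 2.06% of all genes tested. Rdh10, which makes retinaldehyde from retinol, Dhrs3, which turns retinaldehyde back, and Rxrb did not pass (log2 fold changes -0.21, 0.12 and -0.00, adjusted p 0.104, 0.362 and 0.990). The 7 genes that were too low to test were Rbp2, Dhrs9, Adh7, Bco1, Cyp26a1, Cyp26c1 and Rxrg.

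Genes known as targets of retinoic acid in 1 tissue or another did not move in 1 direction. Of 17 listed, 13 were tested, 3 rose and 4 fell in positive cells. These are 7 of 13, against 33.6% of all genes called, and the median log2 fold change was -0.07 against -0.03 over all genes tested. Tgm2, a transglutaminase, rose by 1.93 ± 0.089 on the log2 scale, with 96.5, 141 and 187 CPM in positive and 27.1, 35.2 and 46.7 CPM in negative libraries. Meis1 and Meis2, homeobox genes, rose by 0.71 ± 0.060 and 0.32 ± 0.062. Hoxb6 and Hoxb5 fell by 0.90 (SE 0.090) and 0.61 (SE 0.11), and Stra6, which stands in both lists, by 0.49. Cyp26a1, too low to test, also stands in both, so the lists are not independent of each other. Meis1 is also 1 of the 12 stromal markers. The part of the cell type markers in these changes was not tested.

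Ret (ENSMUSG00000030110), the ureteric tip receptor tied to retinoic acid in the kidney, fell by 1.48 on the log2 scale in positive cells (SE 0.24, adjusted p 9.75e-05). Its level was low throughout, with 0.320, 1.43 and 2.25 CPM (lowest, median and highest) in positive and 2.43, 3.00 and 4.73 CPM in negative libraries. No positive library reached the lowest negative one, a separation shared by 2.06% of all genes tested, and the ratio within a culture was 0.123 to 0.515. Ret is itself 1 of the 6 ureteric tip markers, all of which were called lower in positive cells. By vector the log2 fold change was -1.90 ± 0.45 with Mylk-shRNA, -1.18 ± 0.40 with Rock1/2-shRNA and -1.35 ± 0.40 with scramble-shRNA (adjusted p 0.00729, 0.0702 and 0.0326).

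**Figure D4:**
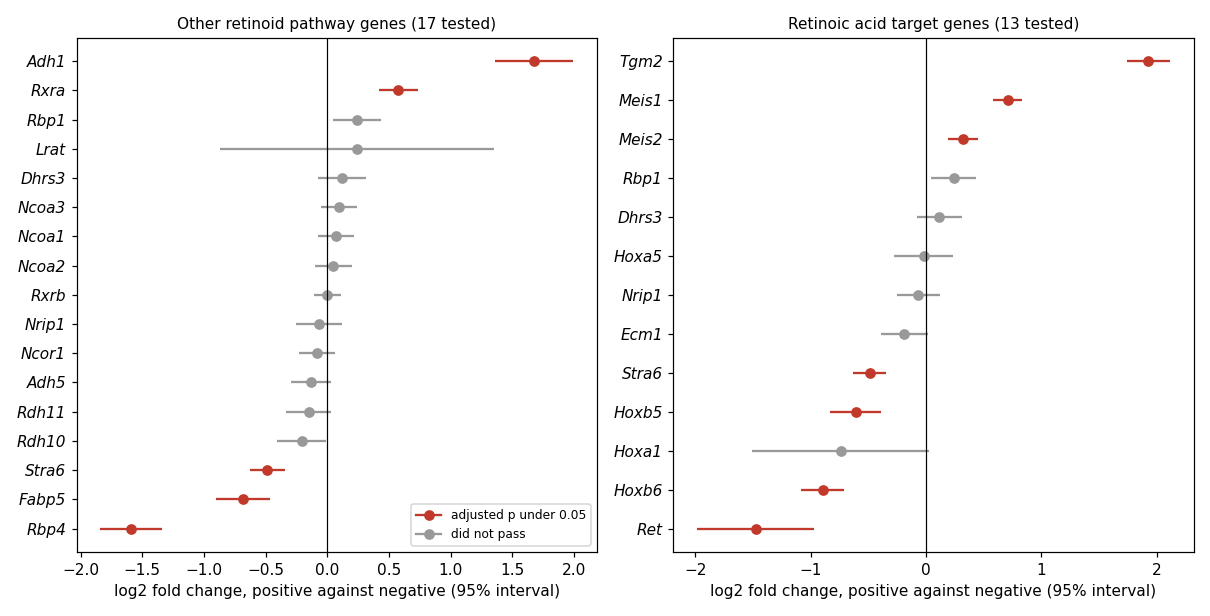
Log2 fold change of positive against negative cells, averaged over vectors (horizontal axis), for 17 other genes of retinoid handling and 13 genes known as retinoic acid targets. Points are fitted values, bars 95% intervals, and red marks an adjusted p under 0.05. Each list has calls on both sides of 0, from Adh1 (1.68) to Rbp4 (-1.59) and from Tgm2 (1.93) to Ret (-1.48).

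Litters differed in several of the 9 genes, and for Rara, Aldh1a2, Rarg and Rarb the same litter was lowest or highest in all 6 groups. Rara averaged 90.2 ± 6.78 CPM in litter 3, 136 ± 13.2 CPM in litter 2 and 137 ± 7.43 CPM in litter 1 (SD, n = 6 libraries each), and litter 3 was the lowest in 6 of 6 groups. The highest Rara library of litter 3 had 103 CPM and the lowest of the other litters 117 CPM, so the litters did not overlap. Litter 3 was also the lowest in 6 of 6 groups for Aldh1a2 and Rarg, in 5 of 6 for Crabp1 and in 4 of 6 for Crabp2 and Cyp26b1, and litter 1 was the highest in 6 of 6 groups for Rarb. The means of Cyp26b1 were close, with 28.9, 30.6 and 28.3 CPM in litters 1, 2 and 3. For Aldh1a1 and Aldh1a3 it was litter 1 that was the lowest in 4 of 6 groups. Litter 3 also had the highest share of mitochondrial counts within its group, except in the scramble-shRNA positive group, where it had 3.95% and litter 1 had 4.02%. The part of that share in these levels was not tested. The change between fractions kept its direction within each litter and vector for Crabp1, Aldh1a3, Aldh1a2 and Cyp26b1.

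**Figure D5:**
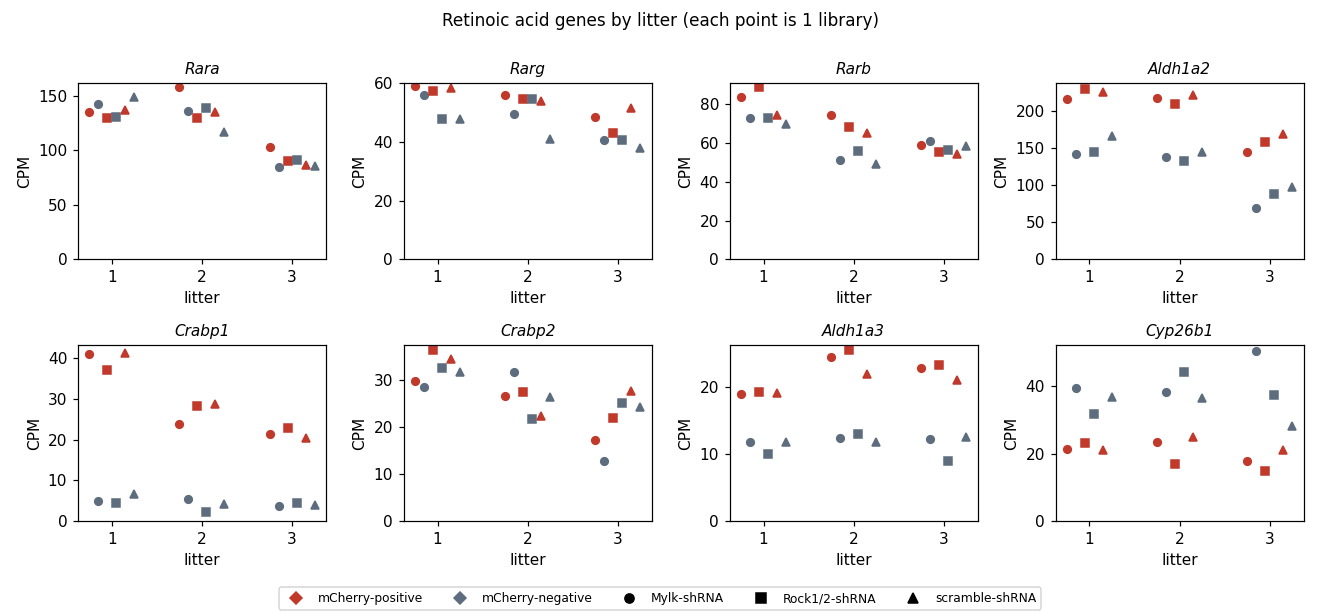
CPM of 8 of the genes (vertical axis) by litter (horizontal axis), with 1 point per library. Colour gives the fraction and shape the vector, and points are set side by side within a litter. Rara lies between 84.5 and 103 CPM in litter 3 and between 117 and 158 CPM in litters 1 and 2.

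The genes with the most similar profiles were found among 10863 candidates averaging 5 CPM or more, by the lowest root mean square difference of centred log2(CPM + 0.5) values over the 18 libraries. Those closest to Crabp1 were Akr1b7, an aldo-keto reductase (0.333), and Cxcl12, a chemokine (0.337), against a spread of 1.35 for Crabp1 itself. Cxcl12 averaged 532 CPM in positive and 115 CPM in negative libraries. Closest to Aldh1a2 were Mapre2, a microtubule end-binding protein (0.106), and Nusap1, a spindle protein (0.138), against a spread of 0.476. Closest to Aldh1a3 were Ctsz, a cathepsin (0.159), and Pde3a, a phosphodiesterase (0.159), against 0.466. Closest to Cyp26b1 were Lipg, a lipase (0.166), and Parvb, a focal adhesion protein (0.173), against 0.4925. For the receptors these were Gatd1 (0.0890) and Caprin1 (0.103) for Rara, Tpm4 (0.103) and Rhob (0.110) for Rarb, and Oat (0.0859) and Cacnb3 (0.0890) for Rarg. For Crabp2 they were Golph3l (0.178) and Klhl36 (0.192), and for Aldh1a1 Mttp (0.468) and Tmem42 (0.471), against a spread of 0.683. With a pseudocount of 2, 13 of these 18 genes were named again.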

How the data were processed

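Poly(A) RNA of sorted cells was sequenced from 18 libraries. The authors deposited 1 table that gives each gene's estimated count and CPM value in each library. The counts need not be whole, since 22.1 to 27.4% of nonzero values are fractions, and the deposited CPM equal the counts divided by the library sum, times 1e+06, as checked. The submitters' processing notes name STAR 2.7.11 and the build GRCm39, featureCounts (Subread 2.1.1), fastp 0.24.0, MultiQC 1.32, FastQC 0.12.1 and SAMtools 1.22.1. Settings, annotation and strand use were not given in the sources used here.

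Counts were rounded, 92 spike-ins were left out, and filterByExpr (minimum count 10, minimum total 15) kept 16544 genes. edgeR's quasi-likelihood test (edgeR 4.0.16, limma 3.58.1, R 4.3.3) used TMM scaling, robust dispersions and a mean for each of the 6 groups over the 18 libraries. It left 12 residual degrees of freedom, and the biological coefficient of variation shared by all genes was 0.165. Benjamini-Hochberg adjustment covered all genes tested. Every p printed is from this fit unless a block or DESeq2 (1.42.0) is named. TMM moved the median gene by under 0.1 on the log2 scale.

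Per the labels, kidneys of a replicate came from 1 litter, so litter numbers pair libraries. Deviations from group means correlated by r = 0.228 to 0.631 in 45 pairs of 1 litter and by -0.522 to 0.284 in 90 pairs of different litters. No libraries were duplicates.

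The 9 genes and the gene lists were chosen with earlier results of these data known. All 9 are named. In comparisons between vectors, single values are given for genes with an unadjusted p under 0.05 or, failing that, the smallest p. Listed genes are named where called, at most 5 per direction, and Ret always. A listed gene is not reported here and was left out of its list's counts. Promoter sequences are RefSeq's (GRCm38.p6) and serve for sequence only, since the files use another build.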

Additional observations from a re-analysis of the deposited data

How the results depend on the processing

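Between fractions, averaged over vectors, Crabp1, Aldh1a3, Aldh1a2 and Cyp26b1 kept direction and call under DESeq2's size factors, DESeq2's test, no filter on low counts, either replicate block, without litter 3 and without each library in turn. The number of the 9 genes called was 4 to 5 under these. Values near 0 changed sign when 1 library was left out: Crabp2 ranged from -0.110 to 0.059 and Rara from -0.085 to 0.040 on the log2 scale. With the replicate block of litter or of culture, 5 of the 9 genes were called with scramble-shRNA, against 3 without a block, and 4 with Mylk-shRNA and with Rock1/2-shRNA. Leaving out 1 library gave 2 to 3 with scramble-shRNA. Aldh1a2 also passed within Mylk-shRNA and Rock1/2-shRNA with no filter on low counts (adjusted p 0.0290 and 0.0473), within Rock1/2-shRNA with only the compared groups (0.0340), and in all 3 vectors without litter 3 (0.00388, 0.00194 and 0.00635). Counts over the whole table moved by over 1.5 times within a vector: 4019 (litter block), 3674 (culture block), 1303 (only the compared groups) and 1416 (without the Mylk-shRNA positive library of litter 1), against 2186 for Mylk-shRNA; 3369, 3026, and 1228 and 1167 (without the negative or the positive library of litter 2), against 1859 for Rock1/2-shRNA; 3848, 3466, and 1182 and 1184 (the same libraries), against 2032 for scramble-shRNA. The cause of these shifts was not tested. The calls gained with the blocks were Aldh1a2 within each vector and Rarg in the average and within scramble-shRNA, and the blocks changed no other call of the 9 genes between fractions. Without litter 3, Aldh1a1 was also called in the average (edgeR, adjusted p 0.0471). A fit of only the compared groups was not run for the average, which uses all groups. Of the other genes of retinoid handling, 8 were called without litter 3 or without its Mylk-shRNA negative library alone, against 5. Depth limits Aldh1a1 and Ret, whose levels rest on few counts.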
